A study of Mus musculus with 4 samples.

Results

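The genes that turn arachidonic acid into leukotrienes, prostaglandins and thromboxane were read in RNA labelled as coming from the mouse mast cell line MC/9. The set was a list of 10 genes chosen by function, with earlier results of these data known. Pla2g4a feeds both branches. Alox5, Alox5ap, Lta4h and Ltc4s belong to the leukotriene branch, and Ptgs1, Ptgs2, Hpgds, Ptges and Tbxas1 to the prostaglandin branch. Of the 10 genes, 9 were named on the Affymetrix Mouse Genome 430 2.0 array by the annotation used here, through 14 of its 45037 non-control probe sets, the groups of short oligonucleotides that each read a transcript. No probe set was named for Ptgs1, so the cyclooxygenase that most cells make all the time is not analysed here.

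Total RNA of 4 cultures was hybridised, 1 array per group. The control cells were nontreated. BER stands for 10 microM berberine, a plant alkaloid, DNP for 500 microg/ml of anti-DNP IgE, IgE that binds the hapten dinitrophenyl, and BER+DNP for their combination. The 3 treated cultures had 24 h of treatment and then 6 h of culture; no times are given for the control, and no antigen step is named. MC/9 is an established line, labelled as coming from (B6 X A/J)F1 liver at an age of 13 days, and all groups share medium with Rat T-STIM, a supplement that supplies growth factors. With 1 array per group there is no replicate error, no test and no p-value, and the number of arrays limits the precision.

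Mast cells are a classical source of these lipids. Phospholipase A2 frees arachidonic acid from membranes, 5-lipoxygenase with its helper protein FLAP turns it into leukotriene A4, and that intermediate is either hydrolysed to leukotriene B4 or joined to glutathione to give the cysteinyl leukotrienes, which constrict airways and make vessels leak. In the other branch the cyclooxygenases make prostaglandin H2, from which separate synthases make prostaglandin D2, the main prostanoid of mast cells, prostaglandin E2 and thromboxane A2.

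The series values that touch these genes were as follows. The values are the authors' log2 signals, with array medians between 3.13 and 3.15 and correlations between arrays of 0.988 to 0.991 over probe sets. A gene was read by its brightest probe set, and was counted as measured if the mean over the 4 arrays reached the median probe set, 3.138; this left 12585 of 18193 genes. Of 16 mast cell markers with a probe set, 7 reached that level; Kit (mean log2 signal 2.78), the IgE receptor genes Fcer1a (2.43) and Ms4a2 (2.67) and the carboxypeptidase gene Cpa3 (2.53) did not, while Hdc, which makes histamine, read 5.50 and Gata2 5.87. Tpsb2 (4.08), Mcpt4 (3.85), Fcer1g (3.56), Mcpt2 (3.49) and Cma1 (3.31) also reached that level. Of 8 markers of leukocytes in general 4 reached it, of 7 macrophage markers 5 and of 9 epithelial markers 8. Of 10 fibroblast markers 6 did, and of 4 platelet markers 2. The keratin genes Krt17 (9.60), Krt14 (8.62) and Krt8 (7.33), the brightest of the epithelial markers, read far above the filter. Krt18 read only 3.91. The epithelial marker Cdh1 lay below the filter, with its highest signal at 1.71 in DNP, and was dimmer than Kit, Fcer1a, Ms4a2 and Cpa3. A dim defining marker was thus found on the epithelial side as well. The dim mast cell markers and bright keratin signals put the mast cell label in doubt. They cannot settle it, because signals of different probe sets are not levels of expression. The values below are therefore those of RNA labelled MC/9, and the identity of the cultures was not tested. The summed mast cell signal was 7.69 in control and 7.68 in BER, against 7.91 in DNP and 7.88 in BER+DNP on the log2 scale, and the summed epithelial signal 10.51, 10.53, 10.65 and 10.62. These sums add unlogged signals of all markers with a probe set, also those below the filter, so the brightest weigh most. Single mast cell markers went both ways in DNP minus control, from -0.35 for Tpsab1 to 0.68 for Mcpt2. No marker was at 0 on any array, but neither was any probe set, since the lowest signals of the arrays were 1.05 to 1.11. In RNA from whole cultures fewer cells of a type and less RNA per cell cannot be told apart. The 3' over 5' difference of the beta-actin control probe sets was larger on the berberine arrays than on the others. It was 2.78 in BER and 2.69 in BER+DNP, against 2.52 in control and 2.33 in DNP. The Gapdh control probe sets lacked this pattern. Their difference was largest in control (1.11) and smallest in DNP (0.96), while BER+DNP gave 1.06 and BER 1.03. The median of 24 probe sets for poly-A transcripts added during preparation ran from 4.97 in BER to 5.59 in control. What part these differences had in the values below was not tested.

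**Figure D1:**
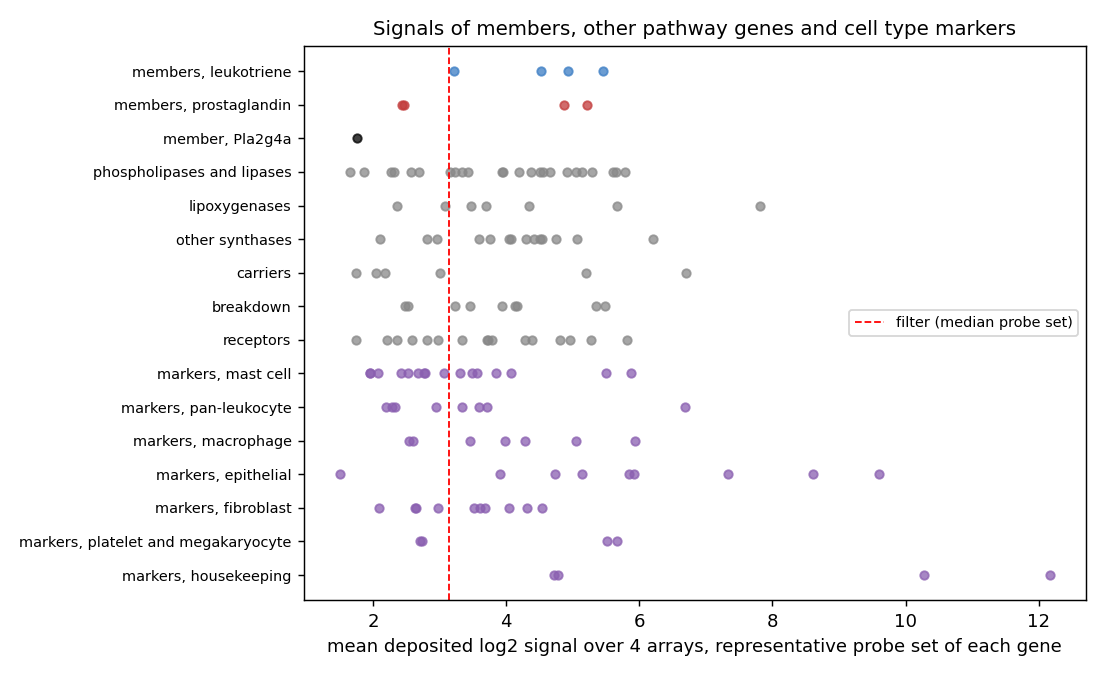
Mean deposited log2 signal over the 4 arrays (x axis) of the representative probe set of each gene (points), by role; the dashed line is the filter at 3.138. All 4 leukotriene members lie right of the line, 2 of the 4 named prostaglandin members and Pla2g4a lie left of it, and 9 of 16 mast cell markers do as well. Signals of different probe sets are not levels of expression and have no order between genes.

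One promoter of each branch is shown: that of Alox5, the first enzyme of the leukotriene branch, which read lowest in control, and that of Ptges. By its brightest probe set alone, Ptges read highest in control and had the widest range of signals among the members past the filter. Each sequence is the 250 bases before the start site on the gene's own strand, minus for both, from RefSeq on GRCm38.p6. Alox5 lies at chr6:116461179-116461428 and Ptges at chr2:30903298-30903547. Capitals mark GC boxes, the letters GGGCGG that factors of the Sp1 family read.
Alox5: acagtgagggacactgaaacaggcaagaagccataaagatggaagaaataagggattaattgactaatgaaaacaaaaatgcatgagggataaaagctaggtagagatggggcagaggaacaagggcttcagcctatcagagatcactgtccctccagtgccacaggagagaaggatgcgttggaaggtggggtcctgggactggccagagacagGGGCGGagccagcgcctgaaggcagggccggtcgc
Ptges: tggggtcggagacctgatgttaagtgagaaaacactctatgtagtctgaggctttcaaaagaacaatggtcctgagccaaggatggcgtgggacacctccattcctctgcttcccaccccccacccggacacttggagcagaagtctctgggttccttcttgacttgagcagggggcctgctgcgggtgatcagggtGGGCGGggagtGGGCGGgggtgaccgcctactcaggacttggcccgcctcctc

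The search covered both strands of the RefSeq promoters of 9 members (all but Alox5ap), 10 windows of 250 bases. Alox5 held 1 GC box, 35 bases before the start, Ptges 2, at 53 and 42 bases, and Ptgs2 1, at 170 bases; a GC box stands in 32.7% of all 32851 promoter windows. The letters TATAAA were found in Tbxas1 (2 overlapping matches on opposite strands, 13 and 11 bases before the start) and in 1 of 2 Pla2g4a windows, against 12.4% of all windows. These matches are letters and show no binding. GC content was 52.8% for Alox5 and 59.6% for Ptges, with a median of 52.4% over all windows.

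Pla2g4a, cytosolic phospholipase A2, was read by 1 dim probe set (1448558_a_at). Its log2 signals were 1.93 in control and 1.73 in BER, against 1.75 in DNP and 1.65 in BER+DNP. Control read highest and BER+DNP lowest, but all 4 values lay far below the filter. In the RefSeq annotation Pla2g4a and Ptgs2 are neighbours with 0 protein-coding genes between them, and both were dim on every array.

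In the leukotriene branch all 4 genes passed the filter and differed little between arrays. Alox5, which encodes 5-lipoxygenase, read 4.84 in control and 4.93 in BER, against 4.92 in DNP and 5.01 in BER+DNP. Control was lowest and BER+DNP highest, and the difference of the berberine pairs, BER minus control (0.09) and BER+DNP minus DNP (0.09), was the same with and without the antibody to the 2 decimals given. Alox5ap, which encodes FLAP, the membrane protein that hands arachidonic acid to 5-lipoxygenase, read 3.17, 3.24, 3.15 and 3.34 in the same order. These readings sit close to the filter, with BER+DNP highest, and berberine gave 0.07 without and 0.18 with the antibody.

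Lta4h, the hydrolase that makes leukotriene B4, had 3 probe sets that did not move together. The brightest (1453528_at) read 5.26 in control and 5.46 in BER, against 5.49 in DNP and 5.63 in BER+DNP. Control was lowest and BER+DNP highest, 0.38 apart, the widest span of the leukotriene branch. The second (1434790_a_at) read 3.66, 3.54, 3.59 and 3.59, with control highest, and the third (1426807_at), below the filter, read 1.99, 1.98, 2.13 and 1.97. BER+DNP minus control was 0.38, -0.07 and -0.03 for one gene, and the direction rests on the brightest probe set alone.

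Ltc4s, the synthase that makes leukotriene C4, the parent of the cysteinyl leukotrienes, read 4.52 in control and 4.36 in BER, against 4.54 in DNP and 4.65 in BER+DNP on its 1 probe set (1419692_a_at). BER was lowest and BER+DNP highest, and the berberine difference was -0.17 without and 0.11 with the antibody. The antibody difference was 0.02 without and 0.30 with berberine; 14.1% of measured genes lay at least as far apart as the latter in BER+DNP minus BER.

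**Figure D2:**
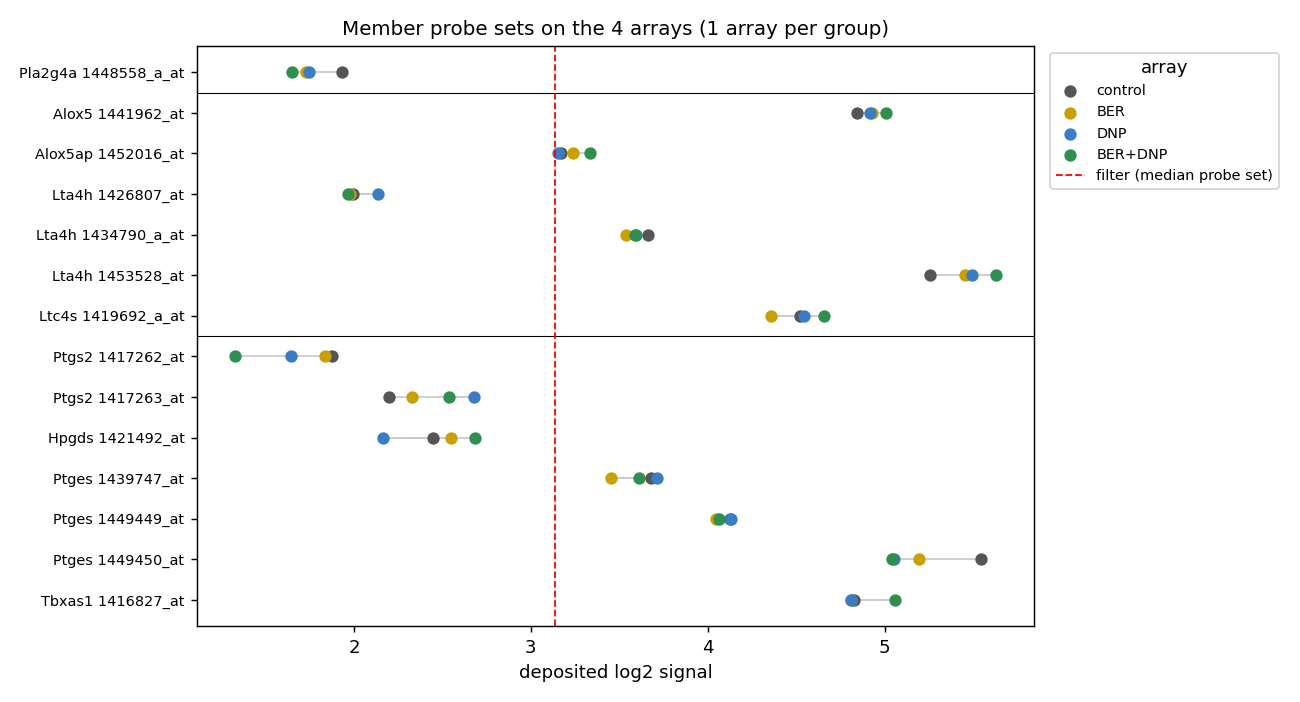
Deposited log2 signal (x axis) of each of the 14 member probe sets on the 4 arrays (coloured points), with Pla2g4a on top, the leukotriene branch in the middle and the prostaglandin branch below; the dashed line is the filter at 3.138. The brightest Ptges probe set runs from 5.04 to 5.54 with control highest, and its other 2 span 0.26 and 0.09.

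In the prostaglandin branch, Ptges and Tbxas1 passed the filter and Ptgs2 and Hpgds did not. Ptgs2, the cyclooxygenase gene that stimuli induce, was dim on both its probe sets. The brighter (1417263_at) read 2.20 in control and 2.33 in BER, against 2.68 in DNP and 2.53 in BER+DNP, and the other (1417262_at) read 1.87, 1.84, 1.64 and 1.33. The pair disagreed on the antibody, with DNP minus control at 0.48 on the first and -0.23 on the second, and BER+DNP minus BER at 0.21 and -0.51. Both read lower in BER+DNP than in DNP, with differences of -0.15 and -0.32. At these signals, and without detection calls, the differences do not show whether Ptgs2 RNA changed.

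Hpgds, the haematopoietic synthase of prostaglandin D2, read 2.44 in control and 2.55 in BER, against 2.16 in DNP and 2.68 in BER+DNP, also below the filter. DNP was lowest and BER+DNP highest, so BER+DNP minus DNP was 0.52 while BER minus control was 0.10.

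Ptges, the inducible microsomal synthase of prostaglandin E2, had the widest range of any member past the filter. Its brightest probe set (1449450_at) read 5.54 in control and 5.19 in BER, against 5.05 in DNP and 5.04 in BER+DNP. The control array stood above the 3 treated arrays, so BER minus control was -0.35 (1.27-fold lower) and DNP minus control -0.49 (1.41-fold lower). These 2 comparisons share the control array, which also had the highest poly-A control median, 5.59; its part in these differences was not tested. Between treated arrays the differences were -0.01 for BER+DNP minus DNP and -0.15 for BER+DNP minus BER. In DNP minus control 3.31% of measured genes lay at least as far apart, and in BER minus control 12.2%.

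The other Ptges probe sets did not show the high control reading. The next (1449449_at) read 4.13, 4.05, 4.13 and 4.06 in control, BER, DNP and BER+DNP, and the last (1439747_at) 3.68, 3.45, 3.71 and 3.61. All 3 probe sets were lower with berberine in both pairs, from -0.35 to -0.08 in BER minus control and from -0.10 to -0.01 in BER+DNP minus DNP. The antibody difference without berberine was 0.00 and 0.03 on these probe sets, against -0.49 on the brightest.

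Tbxas1, which encodes thromboxane A synthase, read 4.83 in control and 4.81 in BER, against 4.81 in DNP and 5.06 in BER+DNP. The first 3 arrays lay within 0.02 of each other and BER+DNP stood above them, which gave 0.25 in BER+DNP minus DNP and also 0.25 in BER+DNP minus BER. In these comparisons 21.8% and 21.2% of measured genes lay at least as far apart.

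Berberine and the antibody each moved 0 of the 6 measured members past 1.5-fold, a log2 difference of 0.585, which served as the call in the absence of a test. The count was 0 in BER minus control, where 1.99% of 12585 measured genes passed 1.5-fold in either direction, and 0 in BER+DNP minus DNP, where 1.21% did. It was 0 in DNP minus control, against 1.43% of genes, 0 in BER+DNP minus BER, against 0.914%, and 0 in BER+DNP minus control, against 1.78%. For 6 genes a count of 0 is near these shares and is no result about the members. Over all 14 probe sets the count was 0 as well, against 1.67%, 1.00%, 1.45% and 0.950% of all non-control probe sets in the first 4 comparisons. The members' median absolute difference was 0.13 in BER minus control and 0.13 in BER+DNP minus DNP, where all measured genes had 0.14 and 0.13, and 0.05 in DNP minus control and 0.16 in BER+DNP minus BER, where they had 0.14 and 0.13.

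**Figure D3:**
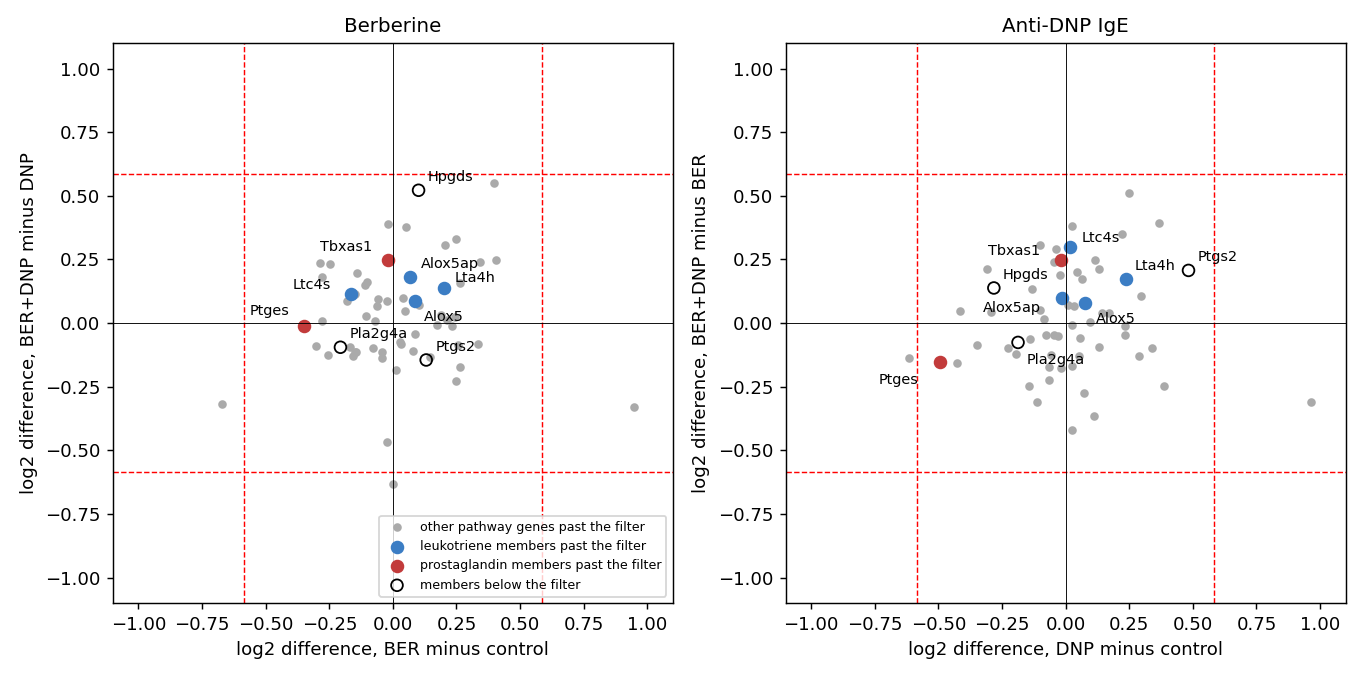
Log2 differences of the members (large points, named) and of 53 other pathway genes past the filter (grey) in the pairs of arrays that share no array: berberine without (x axis) against with the antibody (y axis) on the left, the antibody without (x axis) against with berberine (y axis) on the right. Dashed lines mark 1.5-fold; no member lies outside them, and Ptges lies farthest left among the members past the filter in both panels.

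The median of the 4 leukotriene genes was 0.08 in BER minus control, 0.13 in BER+DNP minus DNP, 0.05 in DNP minus control and 0.14 in BER+DNP minus BER, where the median of all measured genes was 0.00, -0.02, 0.02 and 0.00. The first of these was -0.028 when each gene was read by the median of its probe sets. The 2 measured prostaglandin genes gave -0.35 (Ptges) and -0.02 (Tbxas1), then -0.01 and 0.25, -0.49 and -0.02, and -0.15 and 0.25 in the same comparisons. Alox5, Alox5ap and, by its brightest probe set alone, Lta4h were higher in both berberine pairs and Ptges was lower in both. For Ptges the difference in BER+DNP minus DNP was only -0.012, and it became 0.006 with quantile normalization of the arrays. Of all measured genes 25.4% were higher in both berberine pairs and 29.7% lower in both. By their brightest probe sets, Alox5, Lta4h and Ltc4s were higher in both antibody pairs and Ptges was lower in both, against 29.4% and 26.0% of genes. The other 2 Ptges probe sets were higher in both antibody pairs (0.03 and 0.16, 0.00 and 0.02), and the other 2 of Lta4h changed sign between them (0.14 and -0.01, -0.07 and 0.05).

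The BER+DNP array was highest for 5 of the 6 measured members (Alox5, Alox5ap, Lta4h, Ltc4s and Tbxas1), whereas it was highest for 20.8% of all measured genes. Over all member probe sets it was highest for 6 of 14 and lowest for 4 of 14, so the count depends on which probe set reads a gene. This count was chosen after the values were seen. The differences behind it were small: BER+DNP minus control was 0.16 for Alox5, 0.17 for Alox5ap, 0.38 for Lta4h, 0.13 for Ltc4s and 0.23 for Tbxas1.

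The genes around the members were taken from a list of 82 other genes of eicosanoid supply, synthesis, transport, breakdown and reception, of which 76 had a probe set and 53 passed the filter. Of the 53, 1 was at least 1.5-fold higher and 1 lower in BER minus control, 0 and 1 in BER+DNP minus DNP, 1 and 1 in DNP minus control and 0 and 0 in BER+DNP minus BER. In all, 4 of the 53 genes passed 1.5-fold in at least 1 of these comparisons, against 4.59% of all measured genes.

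Among suppliers of arachidonic acid, 18 of 24 phospholipase and lipase genes passed the filter. Pla2g15, the lysosomal phospholipase, read 2.52 in control and 3.46 in BER, against 3.48 in DNP and 3.15 in BER+DNP, so BER minus control was 0.95 and DNP minus control 0.97, both against the same low control reading, which lay under the filter. Its other probe set, also below the filter, gave 0.11 and 0.06. Pla2g4e, a cytosolic relative of Pla2g4a, read 4.27, 4.02, 3.65 and 3.88, highest in control, with DNP minus control at -0.62. The 4 brightest of this role stayed within 1.5-fold: Pla2g6 gave -0.06 and 0.07 in the berberine pairs, Mgll, which breaks down monoacylglycerols, 0.25 and -0.23, Pla2g2c -0.28 and 0.18, and Pla2g10 -0.04 and -0.11.

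Of the 5 genes of the lipoxygenase group past the filter, 0 passed 1.5-fold. Alox8, below the filter with a mean of 3.09, read 3.25 in control and 3.70 in BER, against 2.53 in DNP and 2.86 in BER+DNP, so it was lower on both antibody arrays, with differences of -0.72 and -0.84; it is named here after its values were seen. Cotl1, whose product binds 5-lipoxygenase, read 7.98 in control and 7.81 in BER, against 7.78 in DNP and 7.69 in BER+DNP. These are values of the brightest of its 6 probe sets, and the others were not compared. It was highest in control and lowest in BER+DNP, where Alox5 was lowest and highest. Both spans were small, with BER+DNP minus control at -0.29 for Cotl1 and 0.16 for Alox5, and a link was not tested. Alox15 gave -0.18 and 0.09 in the berberine pairs and -0.43 in DNP minus control, Aloxe3 0.25 and 0.02, and Alox12e 0.08 and -0.11.

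Of the other synthase genes, 11 of 14 passed the filter. Ptges2, a second prostaglandin E synthase, read 4.51 in control and 4.51 in BER, against 4.89 in DNP and 4.26 in BER+DNP. It was highest in DNP and lowest in BER+DNP, so BER+DNP minus DNP was -0.63, while BER minus control was 0.00. Ptges was highest in control on its brightest probe set only. Its other probe sets hardly separated DNP from control, with DNP minus control at 0.00 and 0.03, against 0.39 for Ptges2. Ptgds, the other prostaglandin D synthase, gave -0.02 and 0.39 in the berberine pairs, the same signs as Tbxas1. Mgst3, a membrane glutathione transferase related to Ltc4s, gave 0.04 and 0.10, and Akr1b8 -0.15 and 0.12.

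Carriers, breakdown enzymes and receptors gave 1 gene past both the filter and 1.5-fold. Cyp4f18, which inactivates leukotriene B4, read 3.47 in control and 2.80 in BER, against 3.50 in DNP and 3.18 in BER+DNP, with BER minus control at -0.67; its other probe set, below the filter, gave 0.47 there. Abcc1, the pump that exports leukotriene C4, lay below the filter with a mean of 3.01, as did the carrier Slc22a22 at 2.18, while the prostaglandin transporter Slco2a1 gave 0.26 and -0.17 in the berberine pairs and Slco2b1 -0.30 and -0.09. In breakdown, Ggt5, which trims leukotriene C4, gave 0.05 and 0.38, Akr1c18 -0.28 and 0.01, Ptgr2 -0.14 and -0.11 and Dpep3 -0.10 and 0.03. Among 10 receptor genes past the filter the brightest were the thromboxane receptor gene Tbxa2r (0.26 and 0.16), Ptgdr2, a prostaglandin D2 receptor gene (-0.14 and 0.20), the leukotriene B4 receptor gene Ltb4r1 (-0.08 and -0.10) and Ptger1, a prostaglandin E2 receptor gene (0.19 and 0.03).

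The measured genes whose 4 readings ran most like those of the brightest Ptges probe set were Zbtb32 (distance 0.028) and Thoc2 (0.049). The distance was taken between log2 values centred on each gene's mean. The other Ptges probe sets, which lacked the high control reading, were not compared. Zbtb32, a transcriptional repressor gene, read 5.10 in control and 4.75 in BER, against 4.64 in DNP and 4.61 in BER+DNP, and Thoc2, of an mRNA export complex, 7.06, 6.69, 6.59 and 6.52. With 4 arrays 30 of 12584 genes came within 0.1 of the brightest Ptges probe set and 302 within 0.2.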

How the data were processed

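Biotin-labelled RNA was measured on 1-colour arrays, 1 per group. The authors' table gives log2 signals for 45101 probe sets. Per the submitters' processing notes, the authors used Affymetrix Expression Console; its version, algorithm, background correction and any detection calls are not stated there. That the values are log2 was read from their range. The near-equal array medians were taken as prior normalization, and the values were used as deposited; any smoothing of low signals stays in them.

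The 64 control probe sets were set apart. Symbols came from the platform annotation of 2016, and 34945 probe sets had 1 symbol. Genes were read by their brightest probe set, with the filter at the median probe set. Differences were taken between 2 arrays, with 1.5-fold as the call. Python 3.11.15, numpy 2.4.6 and pandas 2.3.3 were used, and the steps were tested on simulated data. The members and lists were chosen with earlier results of these data known. All members are named; of the other pathway genes, those past 1.5-fold and the 4 brightest of each role. RefSeq names and promoters are from GRCm38.p6. Alternatives changed the probe set choice, the scaling, an offset on signals and the filter.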

Additional observations from a re-analysis of the deposited data

Results flagged for a closer look

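For 3 measured members a treatment's difference had opposite signs in the pairs of arrays with and without the other treatment. Of all measured genes 25.4% were higher and 29.7% lower in both berberine pairs, and 29.4% and 26.0% in both antibody pairs. A change of sign was thus common among the remaining genes, and its count is no result about the members. With 1 array per group none of these contrasts was tested. The berberine difference of Ltc4s was -0.17 without and 0.11 with the antibody, a gap of 0.28. That of Tbxas1 was -0.02 and 0.25, a gap of 0.27, and its antibody difference was -0.02 without and 0.25 with berberine, the same gap of 0.27 by construction. The antibody difference of Alox5ap was -0.01 without and 0.10 with berberine, a gap of 0.11, at signals near the filter.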

How the results depend on the processing

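The number of members at least 1.5-fold apart was 0 in all 32 recalculations (8 alternatives in 4 comparisons). A median counted as moved when it shifted by more than a spread of 0.174, taken from the differences of differences of all measured genes and divided by the root of the number of members; 54 of 64 branch medians moved less. With the median of all probe sets the leukotriene branch gave -0.028 in BER minus control, so its sign there rests on the probe set of Lta4h, and the prostaglandin branch gave -0.050 in BER minus control and -0.008 in DNP minus control. With 100 added to the signals the prostaglandin branch gave -0.053 and -0.072 in those comparisons, and the leukotriene branch 0.021 in BER+DNP minus DNP and 0.037 in BER+DNP minus BER; an offset shrinks differences by its construction. Without the filter the prostaglandin branch, then 4 genes, gave 0.042 in BER minus control, -0.151 in DNP minus control and 0.173 in BER+DNP minus BER. Of 280 values of single members 256 moved less than the spread; Ptges in DNP minus control became 0.00 with the median of all probe sets, -0.27 with 32 added and -0.14 with 100 added. The number of members that read highest on the BER+DNP array, with alternatives chosen after seeing the data, lay between 4 of 6 (median of all probe sets) and 6 of 9 (no filter). Counts of other pathway genes past 1.5-fold, 0 to 2 per comparison, ran from 0 to 3 over the alternatives and differed by more than 1.5 times, or to or from 0, in 13 of 32 cases. No paired analysis was possible because each group holds 1 array. Dim signals near or below the array median limit what can be said of Pla2g4a, Ptgs2, Hpgds and Alox5ap.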
